A study of Homo sapiens with 12 samples.

Results

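The genes described here encode AP-1 and immediate early transcription factors. They are the FOS family (FOS, FOSB, FOSL1, FOSL2), the JUN family (JUN, JUNB, JUND), ATF3, EGR1 and MAFF. The 10 members were chosen by gene name, and all 10 were found among the 60558 gene identifiers shared by both deposited tables. RNA-seq was performed in MDA-MB-231, a human triple-negative breast cancer cell line, after siRNA knockdown of NONO, an RNA- and DNA-binding nuclear protein, or of PKM2, the M2 isoform of pyruvate kinase. Each knockdown had its own NC group, and each of the 4 groups held 3 libraries (genotype WT for NC, NONO knockdown or PKM2 knockdown). The design asks which genes are transcriptional targets of NONO and PKM2. The siRNA sequences used for these libraries, the time after transfection and whether the repeats were separate cultures were not given in the sources used here. The P values therefore measure the spread between these libraries, which may be technical.

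AP-1 is a dimer of basic leucine zipper (bZIP) proteins. JUN proteins pair with each other or with FOS proteins, whereas FOS proteins do not form stable pairs among themselves, and the dimer binds the sequence TGACTCA. Growth factor signalling through ERK and stress signalling through JNK and p38 raise transcription of many of these genes within minutes without new protein synthesis, hence the name immediate early genes. The ternary complex of SRF and an ELK factor acts at CArG boxes of genes such as FOS and EGR1, and ATF and CREB proteins act at the cyclic AMP response element (CRE), TGACGTCA. FOSL1, which encodes FRA-1, is known to be high in triple-negative breast cancer cells with mesenchymal features. ATF3 is induced by stress, EGR1 is a zinc finger factor rather than a bZIP protein, and MAFF is a small MAF protein without a transactivation domain.

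Depth ran from 19861762 to 28455268 estimated counts per library. The targeted gene was lower in every knockdown library of its experiment. In TPM, a level scaled by gene length and library size, NONO was 227 ± 5.95 in NC and 48.5 ± 1.50 TPM after its knockdown (mean ± SD, n = 3), and PKM, which holds the exons of PKM2, was 1804 ± 34.8 and 168 ± 3.54 TPM. The mesenchymal markers VIM, CD44 and AXL were high, with group means of at least 256 TPM. AXL went from 370 to 256 TPM with PKM2 knockdown and VIM from 3787 to 4413 TPM with NONO knockdown, without overlap of the ranges. Otherwise the TPM ranges of these markers overlapped between NC and knockdown. ESR1 and PGR stayed under 0.2 TPM on average and CDH1 at 0.02 TPM or less. ERBB2, also named as low for this line, had group means of 14.3 to 30.8 TPM and EPCAM of 1.64 to 3.32 TPM, and both were lower after PKM2 knockdown (-0.86 and -0.70 on the log2 scale, adjusted P = 6.12e-08 and 0.0162, edgeR). Of the markers of other cell types, CD3E and HBB were listed at 0 in all libraries, and PTPRC, PECAM1 and ALB had group means of 1.86 TPM or less, of which PECAM1 was higher after NONO knockdown (0.293 TPM in NC and 0.587 TPM after knockdown). NC replicate 1 of the NONO experiment and PKM2 knockdown replicate 3 stood farthest from the other libraries of their groups, with a chi-square per degree of freedom of 8.29 or more against both, while all other pairs of replicates were at 4.17 or less.

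The promoters of 9 members were matched in RefSeq (GRCh38.p14) and searched from 250 bases before to 50 bases after the start site. FOSL1 had no match there, so its promoter was not searched. The 250 bases before the start site are shown for 4 members. These differed between PKM2 knockdown and NC and hold a whole binding motif in those bases. ATF3 met the same conditions and is not shown. Sequences are printed 5′ to 3′ on the strand of the gene with the motif in capitals. These windows are chr5:138465229-138465478 (plus strand) for EGR1, chr22:38201744-38201993 (plus) for MAFF, chr1:58784048-58784297 (minus) for JUN and chr19:18281623-18281872 (minus) for JUND.

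EGR1: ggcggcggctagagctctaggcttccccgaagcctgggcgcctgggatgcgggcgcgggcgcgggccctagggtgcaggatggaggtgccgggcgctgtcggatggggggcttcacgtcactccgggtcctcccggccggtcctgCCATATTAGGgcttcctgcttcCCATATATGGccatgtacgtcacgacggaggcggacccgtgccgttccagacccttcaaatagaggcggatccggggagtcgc
MAFF: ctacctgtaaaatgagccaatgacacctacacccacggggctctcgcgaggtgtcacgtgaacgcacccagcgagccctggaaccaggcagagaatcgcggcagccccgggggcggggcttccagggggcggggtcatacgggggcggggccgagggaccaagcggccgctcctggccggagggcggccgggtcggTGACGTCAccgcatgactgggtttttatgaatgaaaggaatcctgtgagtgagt
JUN: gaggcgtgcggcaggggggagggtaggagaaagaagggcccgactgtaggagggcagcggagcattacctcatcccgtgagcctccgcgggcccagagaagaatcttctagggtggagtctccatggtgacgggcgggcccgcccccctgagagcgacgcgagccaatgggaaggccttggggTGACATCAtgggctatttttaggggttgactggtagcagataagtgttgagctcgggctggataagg
JUND: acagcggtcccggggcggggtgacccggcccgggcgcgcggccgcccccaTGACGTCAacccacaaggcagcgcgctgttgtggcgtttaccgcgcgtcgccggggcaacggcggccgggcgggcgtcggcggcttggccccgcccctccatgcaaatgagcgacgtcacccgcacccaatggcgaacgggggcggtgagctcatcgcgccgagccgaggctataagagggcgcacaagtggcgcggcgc

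In EGR1, the capitals mark 2 CArG boxes at -105 to -96 and -83 to -74 from the start site. A CArG box was found in 1.29% of the 35114 promoters searched and in the window of no other matched member. Bases more than 250 before the start site, those of FOS included, were not searched. MAFF and JUND each hold the CRE TGACGTCA, at -54 to -47 and -200 to -193, which was present in 1.85% of all promoters. JUN holds TGACATCA, a variant that was added to the search after the sequences had been seen, at -67 to -60, and ATF3 holds it at -123 to -116 (2.61% of all promoters). Of the matched members, which leave out FOSL1, only FOSL2 held the AP-1 site itself, TGACTCA or its complement TGAGTCA. It lay at 5 to 11 after the start site (4.95% of all promoters). The shorter CRE core TGACG, which the whole CRE contains, was present on either strand in 8 of the 9 matched members, ATF3 being the exception, and in 24.6% of all promoters. These are matches of letters in these windows, searched on both strands, and binding was not measured. Any other start site of a member was not searched, and the window of ATF3 lies at the upstream end of its locus.

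In the NC cells, FOSL1 had the highest mRNA level of the members. Its TPM was 600 ± 8.46 in the NC of the NONO experiment and 600 ± 11.8 in the NC of the PKM2 experiment, above 98.7% of the genes tested in both. JUND and JUN came next, at 107 ± 15.3 and 92.0 ± 1.48 TPM in the NONO experiment and 101 ± 1.24 and 83.4 ± 13.3 TPM in the PKM2 experiment. Their ranges overlapped in the first and not in the second. From counts per length in place of the deposited TPM the order of the pair turned, with JUN at 49.5% and JUND at 25.8% of the JUN family sum in the NC of the NONO experiment and at 48.8% and 31.1% in the other NC, and FOSL1 was first in both. In TPM, MAFF and JUNB followed (52.3 ± 6.56 and 50.3 ± 9.46 TPM, ranges overlapping, in the NONO experiment, and 49.6 ± 5.23 and 36.7 ± 7.72 TPM in the PKM2 experiment), then FOSL2 (27.4 ± 2.43 and 22.1 ± 1.73 TPM). EGR1, ATF3 and FOS lay lower and overlapped in the NONO experiment, and FOSB was lowest at 1.45 ± 0.420 and 0.540 ± 0.115 TPM. The 2 tables were normalized separately, so levels are compared within an experiment.

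**Figure D1:**
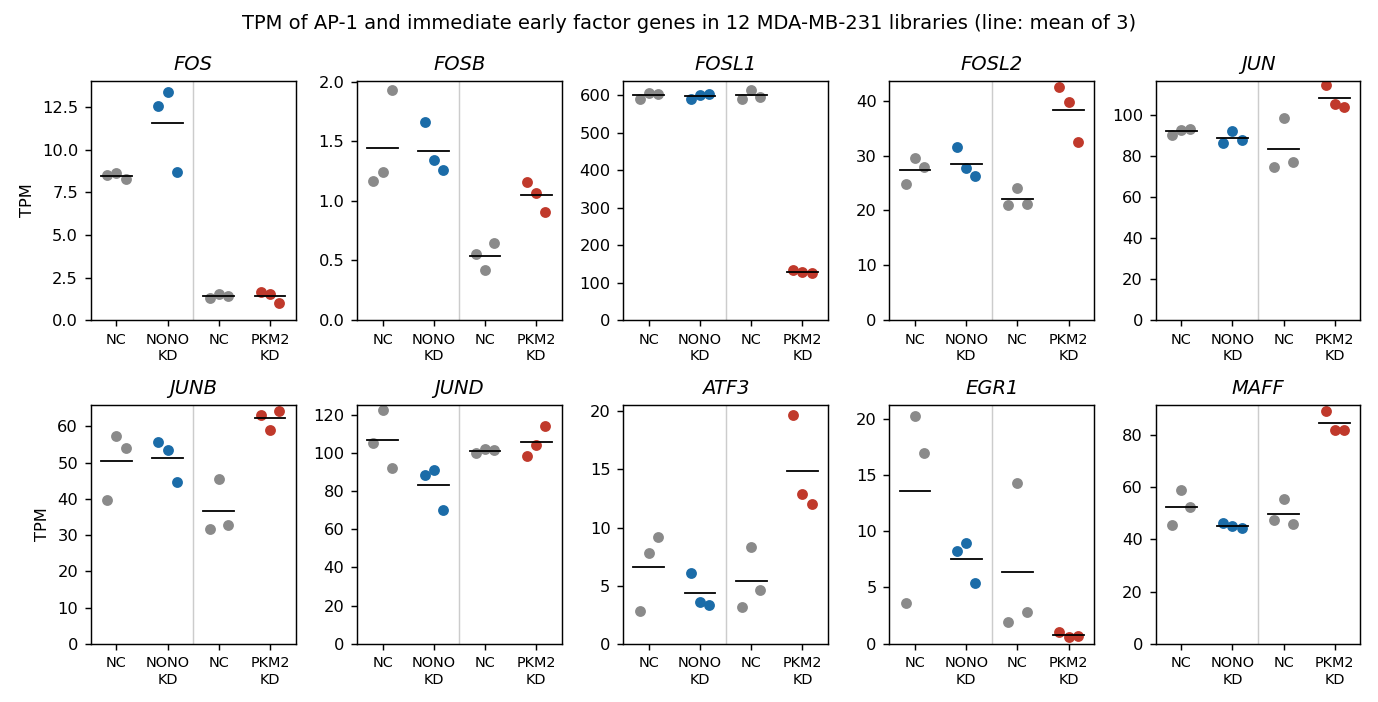
TPM (linear axis from 0) of the 10 members in each of the 12 libraries; points are libraries, black lines are means of 3, and the grey line separates the NONO experiment (left) from the PKM2 experiment (right). FOSL1 lies between 590 and 613 TPM in the 9 other libraries and between 126 and 134 TPM after PKM2 knockdown.

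PKM2 knockdown lowered FOSL1 and EGR1 and raised FOSB, FOSL2, JUN, JUNB, JUND, ATF3 and MAFF. Of the 10 members, 9 passed an adjusted P of 0.05 by edgeR's quasi-likelihood test (7 higher, 2 lower), against 68.4% of the 15524 genes tested (33.6% higher and 34.7% lower). The median log2 fold change was 0.70 over the members and -0.01 over all genes. The study's own cutoffs ask for more than a 2-fold difference and an unadjusted P below 0.05. By these, ATF3 (higher) and FOSL1 and EGR1 (lower) passed, 3 of 10 against 20.8% of all genes (7.05% higher and 13.8% lower). The CPM (counts scaled to a common library size by TMM) of NC and knockdown libraries did not overlap for the 9 called members, 7 higher against 35.0% and 2 lower against 36.9% of all genes. In bulk RNA, fewer expressing cells and less RNA per cell cannot be told apart. The calls numbered 8 or 9 when any 1 library was left out, 9 without knockdown replicate 3, and 6 at the lowest over the other tests and settings at an adjusted P of 0.05.

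FOSL1 (chr11:65892049-65900573, minus strand, GRCh38) showed the most even response. It was listed at 591, 613 and 595 TPM in the 3 NC libraries and at 134, 128 and 126 TPM in the 3 PKM2 knockdown libraries, so every knockdown library was far below every NC library. The fall was 4.51-fold (log2 fold change -2.17, SE 0.04, adjusted P = 3.75e-11 by edgeR), rank 483 from the lowest among the genes tested. Each NC library held at least 16026 estimated counts of FOSL1. The estimated counts of FOSL1 were not whole in any of the 6 libraries of this experiment and were whole in all 6 of the NONO experiment, and how reads that fit more than 1 feature were counted is not given in the sources used here.

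FOSL2 (chr2:28392448-28417312, plus strand), which encodes FRA-2, moved the other way. Its TPM was 21.0, 24.1 and 21.2 in NC and 42.5, 39.7 and 32.6 after PKM2 knockdown, and the groups did not overlap. FOSL2 rose 1.91-fold (log2 fold change 0.93, SE 0.08, adjusted P = 4.52e-07, edgeR). FOSB (chr19:45467995-45475179, plus strand), whose protein is the closest relative of FOS, was present at 0.55, 0.42 and 0.65 TPM in NC and 1.16, 1.07 and 0.91 TPM after knockdown. The rise of FOSB was 1.96-fold (log2 fold change 0.97, SE 0.26, adjusted P = 0.00608, edgeR), but it rests on 23 to 64 counts per library. FOS itself (chr14:75278774-75282230, plus strand) was at 1.32, 1.55 and 1.43 TPM in NC and 1.67, 1.52 and 0.98 TPM after knockdown, and the groups overlapped. Its log2 fold change of -0.40 (SE 0.28) did not pass the test (adjusted P = 0.230, edgeR), at a depth of 23 to 48 counts per library.

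All 3 JUN genes were higher after PKM2 knockdown. JUN (chr1:58780788-58784327, minus strand), the main transactivating partner of FOS proteins, was at 74.6, 98.7 and 76.8 TPM in NC and at 115, 105 and 104 TPM after knockdown. One NC library, replicate 2, stood close to the knockdown libraries without reaching them. The rise was 1.42-fold (log2 fold change 0.50, SE 0.08, adjusted P = 0.000214, edgeR). With limma on log2(TPM + 1) without a filter, JUN was 0.38 and did not pass (adjusted P = 0.0719). JUNB (chr19:12791496-12793315, plus strand), a weaker activator that can oppose JUN, was at 31.8, 45.6 and 32.7 TPM in NC and 63.1, 59.1 and 64.3 TPM after knockdown, a rise of 0.89 on the log2 scale (SE 0.11, adjusted P = 2.14e-05, edgeR). The exons of JUNB share 259 bases with HOOK2 on the opposite strand and the strand setting is not given in the sources used here. HOOK2 fell by 0.63 on the log2 scale (SE 0.07, adjusted P = 5.40e-06, edgeR), and the part of the shared bases in either value was not tested.

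JUND (chr19:18279760-18281622, minus strand), the JUN gene usually transcribed in resting cells, changed least. It was at 99.9, 102 and 102 TPM in NC and 98.6, 104 and 114 TPM after knockdown, and these TPM ranges overlapped. In CPM, the knockdown libraries were at 72.9 or more and the NC libraries at 69.4 or less, and the log2 fold change was 0.21 (SE 0.07, adjusted P = 0.0172, edgeR). The call was lost with limma on log2(TPM + 1) (0.06, adjusted P = 0.519) and without NC replicate 1 (0.21, adjusted P = 0.0526) or NC replicate 2 (0.18, adjusted P = 0.0729), and the value was 0.14 without knockdown replicate 3. It was 0.43 once the trend with GC content and length was taken out. JUND has a GC content of 69.67% against a median of 47.99% over the genes tested.

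ATF3 (chr1:212565334-212620777, plus strand), a stress-induced factor that represses or activates according to its partner, was at 3.15, 8.35 and 4.64 TPM in NC and at 19.7, 12.9 and 12.04 TPM after PKM2 knockdown. The NC libraries differed among themselves by 2.65-fold, yet the highest of them was below the lowest knockdown library. ATF3 rose 3.38-fold (log2 fold change 1.76, SE 0.26, adjusted P = 8.97e-05, edgeR). MAFF (chr22:38200767-38216511, plus strand), a dimer partner of CNC and BACH factors, was at 47.5, 55.6 and 45.8 TPM in NC and 89.3, 81.9 and 82.0 TPM after knockdown. Its rise of 0.90 on the log2 scale (SE 0.07, adjusted P = 1.92e-07, edgeR) was held by every knockdown library.

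EGR1 (chr5:138465490-138469315, plus strand), an early zinc finger factor downstream of ERK, had the largest fold of the members and the widest spread. It was at 1.90, 14.3 and 2.84 TPM in NC and at 1.06, 0.56 and 0.72 TPM after PKM2 knockdown. All knockdown libraries were below all NC libraries, but the NC libraries differed by 7.52-fold because replicate 2 was high. EGR1 fell 7.27-fold (log2 fold change -2.86, SE 0.68, adjusted P = 0.00284, edgeR). Without NC replicate 2, the log2 fold change was -1.48 (adjusted P = 0.000794, edgeR), and with limma on log2(TPM + 1) it was -1.65 and did not pass (adjusted P = 0.0638). The knockdown libraries held 29 to 56 counts of EGR1.

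**Figure D2:**
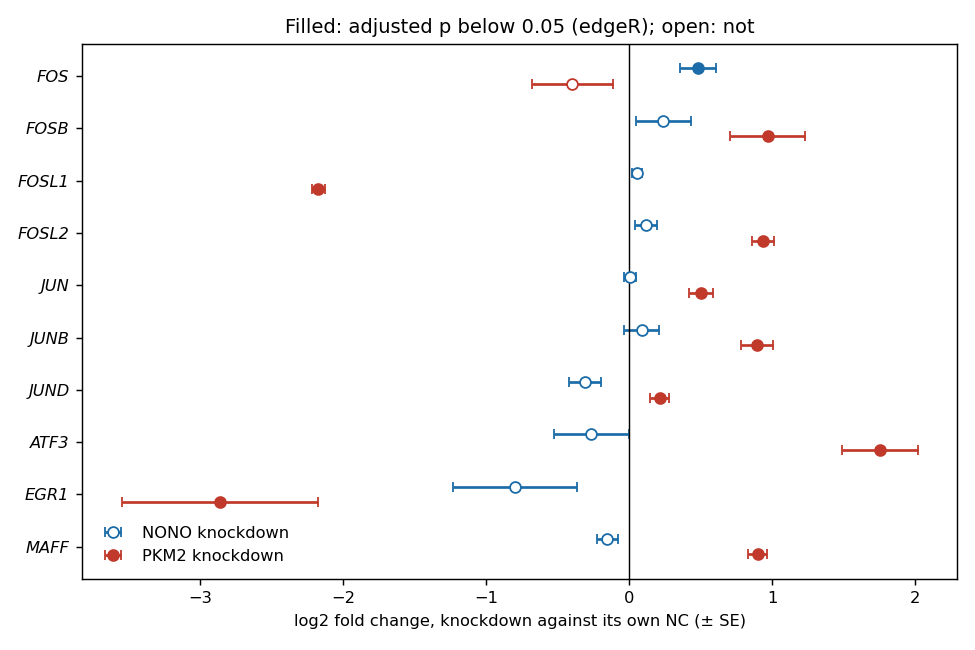
Log2 fold change of each member after NONO knockdown (blue) and PKM2 knockdown (red) against its own NC group, on a linear axis with bars of 1 SE from the edgeR fit and filled points for an adjusted P below 0.05. After PKM2 knockdown FOSL1 (-2.17) and EGR1 (-2.86) lie left of 0 and 7 filled points lie right of it, and after NONO knockdown FOS (0.48) is filled.

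FOS was higher after NONO knockdown, and the other 9 members did not pass the test, a share of 1 of 10 against 33.4% of the 14832 genes tested (16.2% higher and 17.2% lower). None passed the cutoffs of the study, which 2.95% of all genes did (0.789% higher and 2.16% lower). The CPM of FOS, FOSB and FOSL1 was higher in all knockdown than in all NC libraries, 3 of 10 against 22.6% of all genes, and none was lower in all (23.5% of all genes). In TPM, the ranges of FOSB and of FOSL1 overlapped between NC and knockdown. The median log2 fold change over the members was 0.03, against -0.01 over all genes. The count ran from 0 to 5 members when 1 library was left out, and 5 were called without NC replicate 1, the library that stood apart, a fit that called 41.2% of all genes.

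FOS was at 8.53, 8.66 and 8.29 TPM in the NC of the NONO experiment and at 12.6, 13.4 and 8.71 TPM after NONO knockdown. The third knockdown library lay just above the NC libraries. The log2 fold change was 0.48 (SE 0.13, adjusted P = 0.0123, edgeR), with 136 to 227 counts per library. The call was lost without knockdown replicate 2 (0.40, adjusted P = 0.0684) and with limma on log2(TPM + 1) (0.39, adjusted P = 0.150). FOSL1 was at 590, 606 and 603 TPM in NC and 591, 601 and 603 TPM after knockdown. These TPM ranges overlapped whereas the CPM ranges did not, and the log2 fold change was 0.06 (SE 0.04, adjusted P = 0.271, edgeR).

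FOSL2, FOSB, JUN and JUNB had log2 fold changes between 0.00 and 0.24 after NONO knockdown, with adjusted P of 0.267, 0.376, 0.949 and 0.625. JUN was at 90.3, 92.7 and 92.9 TPM in NC and 86.3, 92.0 and 87.9 TPM after knockdown, the smallest log2 fold change of the members (0.00, SE 0.04). JUND was at 105, 123 and 92.2 TPM in NC and at 88.7, 91.3 and 70.3 TPM after knockdown. Its TPM ranges did not overlap whereas its CPM ranges did, and its log2 fold change of -0.31 (SE 0.11) was just outside the threshold (adjusted P = 0.0501, edgeR). Under 7 of 15 alternatives JUND passed, among them DESeq2 (-0.30, adjusted P = 0.0184).

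ATF3, EGR1 and MAFF leaned lower after NONO knockdown without passing the test. EGR1 was at 3.62, 20.2 and 17.0 TPM in NC and 8.25, 8.92 and 5.38 TPM after knockdown, so the lowest value of all belonged to an NC library. Its log2 fold change was -0.80 (SE 0.43, adjusted P = 0.186, edgeR). ATF3 was at 2.86, 7.77 and 9.23 TPM in NC and 6.07, 3.59 and 3.35 TPM after knockdown (-0.26, SE 0.26, adjusted P = 0.481). MAFF was at 45.6, 58.7 and 52.4 TPM in NC and 46.1, 45.2 and 44.3 TPM after knockdown (-0.15, SE 0.07, adjusted P = 0.143). For each of these 3 genes NC replicate 1 was the lowest of the NC libraries. Without it, 5 members were called, FOS higher and JUND (-0.28), ATF3 (-0.53, adjusted P = 0.0155), EGR1 (-1.23, adjusted P = 1.64e-07) and MAFF (-0.23, adjusted P = 0.00151) lower.

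The same libraries ranked lowest or highest among the NC libraries for many early genes, but few of these genes lay far from the other libraries. In the NONO experiment NC replicate 1 was the lowest of the 3 NC libraries for 8 of 10 members and for 17 of 22 other immediate early genes, against 40.2% of all genes tested. EGR1 in that library was 0.198 times the mean of the other 2 and ATF3 0.471 times. In the PKM2 experiment NC replicate 2 was the highest for 7 of 10 members and for 16 of 22 other immediate early genes, against 32.7% of all genes. EGR1 there was 5.91 times and ATF3 2.00 times the mean of the others. These 2 libraries were picked after their values had been seen, and what sets them apart was not tested.

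**Figure D3:**
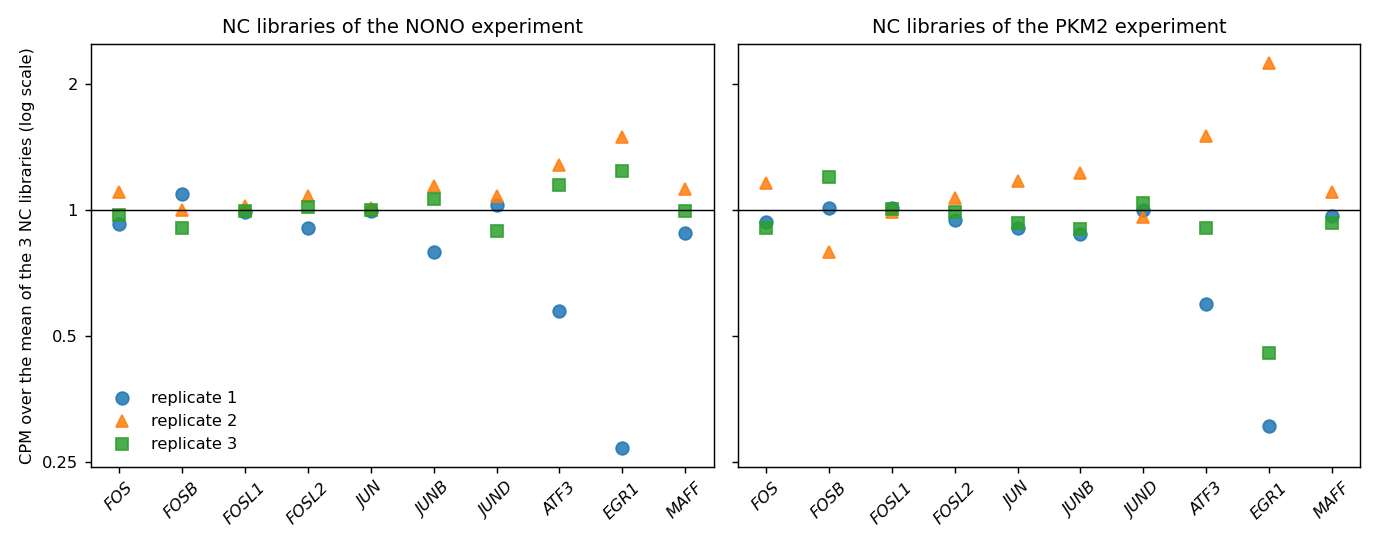
CPM of each member in each NC library divided by the mean of its 3 NC libraries, on a log axis, for the NONO experiment (left) and the PKM2 experiment (right), with 1 symbol per replicate. EGR1 and ATF3 spread most, with replicate 1 low on the left and replicate 2 high on the right, while FOSL1 stays at 1 in both.

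The responses to the 2 knockdowns were compared in 1 edgeR fit over the 12 libraries, in which the change after NONO knockdown was subtracted from that after PKM2 knockdown. Of the 10 members, 8 differed (6 higher and 2 lower with PKM2 knockdown), against 53.1% of the 15995 genes tested (25.7% higher and 27.4% lower). A difference of more than 2-fold with an unadjusted P below 0.05 was seen for 4 members, against 18.1% of all genes (6.31% higher and 11.8% lower). Among the members that passed, the largest differences were those of FOSL1 (-2.24 on the log2 scale, SE 0.06, adjusted P = 1.48e-14), ATF3 (2.00, SE 0.42, adjusted P = 0.000643) and MAFF (1.04, SE 0.11, adjusted P = 3.14e-07). FOSL2 and JUNB differed by 0.80 and 0.79, JUND by 0.51 and JUN by 0.49. FOS was lower with PKM2 knockdown by this measure (-0.89, SE 0.27, adjusted P = 0.00964), although its own change after PKM2 knockdown was not called. EGR1 differed by -2.07 (SE 0.96) and FOSB by 0.72 (SE 0.31), and neither passed (adjusted P = 0.0813 and 0.0642). The EGR1 difference ran from -2.52 to -0.69 when 1 library was left out, the smallest size being without NC replicate 2 of the PKM2 experiment. With limma on log2(TPM + 1), the differences of FOS (-0.42, adjusted P = 0.130) and JUND (0.41, adjusted P = 0.0759) did not pass.

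The composition of the FOS family changed with PKM2 knockdown. Summed TPM over the 4 FOS genes was 624 ± 13.5 in NC and 170 ± 9.65 after knockdown, a ratio of 3.67. FOSL1 made up 96.1% ± 0.194 of this sum in NC and 76.1% ± 2.05 after knockdown, and FOSL2 3.54% ± 0.200 and 22.4% ± 1.84. The sum over the JUN genes was 221 ± 22.0 TPM in NC and 276 ± 6.93 TPM after knockdown, with ranges of 206 to 247 and 269 to 282. The FOS sum was thus 2.83 ± 0.209 times the JUN sum in NC and 0.617 ± 0.0441 times after knockdown. With NONO knockdown the FOS sum was 637 ± 11.0 TPM in NC and 640 ± 3.55 TPM, and FOSL1 held 94.1% ± 0.307 and 93.5% ± 0.767 of it. The JUN sum there was 249 ± 20.9 and 223 ± 18.1 TPM, ranges that overlapped. The sums and shares were not tested.

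**Figure D4:**
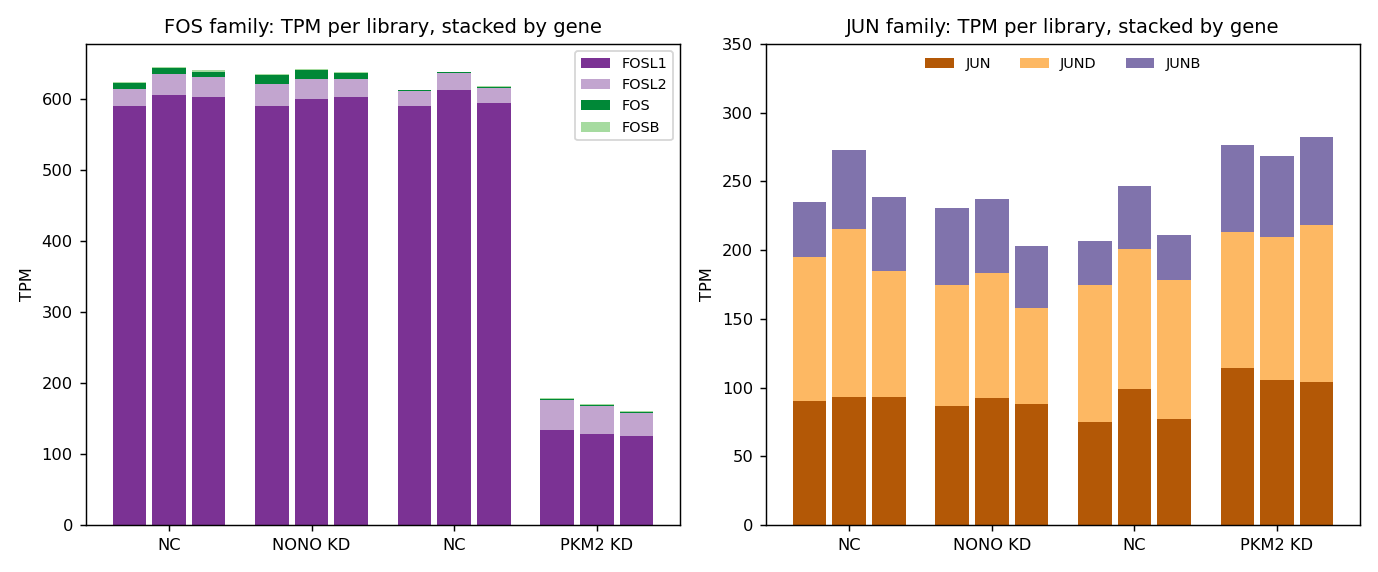
Summed TPM of the FOS family (left) and the JUN family (right) in each of the 12 libraries, as bars from 0 stacked by gene, in the order NC and NONO knockdown, then NC and PKM2 knockdown. The FOS bars fall from between 614 and 639 TPM to between 160 and 179 TPM with PKM2 knockdown through FOSL1, while the JUN bars keep all 3 genes in sizeable shares.

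After PKM2 knockdown, the order of the members also changed. FOSL1 stayed first at 129 ± 4.25 TPM, above 92.4% of the genes tested, with JUN at 108 ± 5.68 and JUND at 106 ± 7.79 TPM close behind. The ranges of FOSL1 and JUN did not overlap in TPM, whereas from counts per length they did (156 to 166 and 145 to 158), with JUND at 76.9. In TPM, ATF3, at 14.9 ± 4.21 TPM, stood above FOS (1.39 ± 0.363), FOSB (1.05 ± 0.127) and EGR1 (0.780 ± 0.255 TPM). The last 3 overlapped in this order, and EGR1, which was above FOS in the NC cells, was now the lowest member.

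Genes that act with, above or below these factors were read from 4 lists. Of the upstream kinases, cofactors and ubiquitin ligases, 22 of 28 were called after PKM2 knockdown (9 higher, 13 lower, median -0.13), against 68.4% of all genes with a median of -0.01. SRF, the factor that binds CArG boxes, was at 46.7 ± 0.849 TPM in NC and 10.8 ± 0.556 TPM after knockdown, a fall of 1.99 on the log2 scale (SE 0.05, adjusted P = 1.39e-10, edgeR). ELK3, a ternary complex factor of SRF, was at 67.7 ± 7.60 and 12.7 ± 2.65 TPM (-2.26, SE 0.08, adjusted P = 8.89e-10). MAP2K7, a kinase that activates JNK, rose by 1.02, and FBXW7, a ubiquitin ligase that targets JUN, by 1.01. With limma on log2(TPM + 1), FBXW7 was 0.36 and did not pass (adjusted P = 0.0604). After NONO knockdown 14 of 28 were called (7 higher, 7 lower, median 0.04), against 33.4% of all genes with a median of -0.01. RPS6KA2, an ERK-activated kinase, fell by 1.38 and MAP2K3, which activates p38, by 0.35, while ELK4 rose by 1.18 and MAP2K7 by 0.71. The fall of RPS6KA2 was not called by limma on log2(TPM + 1) (-0.83, adjusted P = 0.0925). FBXW7 was lower after NONO knockdown (-0.35, adjusted P = 0.00571, edgeR). MAP2K3 leaned higher after PKM2 knockdown (0.23 to 0.29 when 1 library was left out).

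Other immediate early genes moved in both directions. After PKM2 knockdown 15 of 22 tested genes were called (8 higher, 7 lower, median 0.03), a share near the 68.4% of all genes. IER2, an early nuclear protein, was at 28.9 ± 2.90 TPM in NC and 102 ± 0.983 TPM after knockdown (log2 fold change 1.94, SE 0.07, adjusted P = 8.37e-10, edgeR), and RHOB, an early-induced small GTPase, rose by 1.67. HBEGF, an EGFR ligand, fell by 0.90 and NAB2, a corepressor of EGR1, by 0.79. After NONO knockdown 9 of 22 were called (6 higher, 3 lower, median 0.09), against 33.4% of all genes. RHOB rose by 0.90 and KLF2, a zinc finger factor, by 0.79. DUSP1, a MAP kinase phosphatase, fell by 0.50 and GADD45B, a stress-response gene, by 0.30. With limma on log2(TPM + 1), GADD45B was -0.18 and not called (adjusted P = 0.0824). HBEGF also fell after NONO knockdown, by 0.19 (adjusted P = 0.0195, edgeR), although DESeq2 did not call it (adjusted P = 0.0506). KLF2 fell by 0.50 after PKM2 knockdown (adjusted P = 0.000285, edgeR), which limma on log2(TPM + 1) did not call (adjusted P = 0.0790).

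Among bZIP partners and relatives, 9 of 14 tested genes were called after PKM2 knockdown (3 higher, 6 lower, median 0.01) and 5 of 14 after NONO knockdown (1 higher, 4 lower, median -0.15), both shares near those of all genes (68.4% and 33.4%). ATF1, a CRE-binding factor, rose in both, from 16.6 ± 1.75 to 37.4 ± 2.22 TPM with PKM2 knockdown (1.30, SE 0.06, adjusted P = 7.05e-09) and from 15.1 ± 1.37 to 25.7 ± 1.43 TPM with NONO knockdown (0.77, SE 0.07, adjusted P = 8.76e-06). JDP2, a repressor that pairs with JUN, fell in both (-1.24, SE 0.14, and -0.58, SE 0.11). MAFK, a small MAF protein like MAFF, fell by 0.27 after NONO knockdown (adjusted P = 0.00702, edgeR). Limma on log2(TPM + 1) did not call that fall (adjusted P = 0.0585). With PKM2 knockdown MAFK rose by 0.57. MAFG, the remaining small MAF protein, fell by 1.57 (SE 0.56, adjusted P = 0.0263), but without NC replicate 2 it was -0.51 (adjusted P = 0.232) and DESeq2 did not call it (adjusted P = 0.0788). BACH2 fell by 0.67 after NONO knockdown in the edgeR fit of the counts (SE 0.16, adjusted P = 0.00681). The deposited TPM showed a larger fall, from 2.43 ± 0.395 to 0.927 ± 0.318 TPM. Over the alternative settings with all libraries kept, its log2 fold change ran from -1.33 to -0.61.

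Of the known AP-1 target genes, 13 of 17 were called after PKM2 knockdown (6 higher, 7 lower, median 0.03), against 68.4% of all genes, and 7 of 17 after NONO knockdown (4 higher, 3 lower, median 0.04), against 33.4%. The collagenase MMP1 rose with both knockdowns, from 26.3 ± 1.86 to 149 ± 6.04 TPM (2.63, SE 0.06) and from 49.1 ± 1.65 to 136 ± 3.80 TPM (1.53, SE 0.05). The stromelysin MMP3 rose by 3.89 and 2.43 on the log2 scale. IL11, a cytokine of the IL6 family, fell by 1.92 and 2.63. HMGA1, an architectural chromatin protein, was at 2771 ± 97.5 TPM in NC and 546 ± 5.31 TPM after PKM2 knockdown (-2.20, SE 0.05, adjusted P = 3.89e-11, edgeR). CCND1, which encodes cyclin D1, fell by 0.42 after NONO knockdown. When 1 library was left out, CCND1 ran from 0.53 to 0.58 after PKM2 knockdown and HMGA1 from -0.33 to -0.26 after NONO knockdown.

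**Figure D5:**
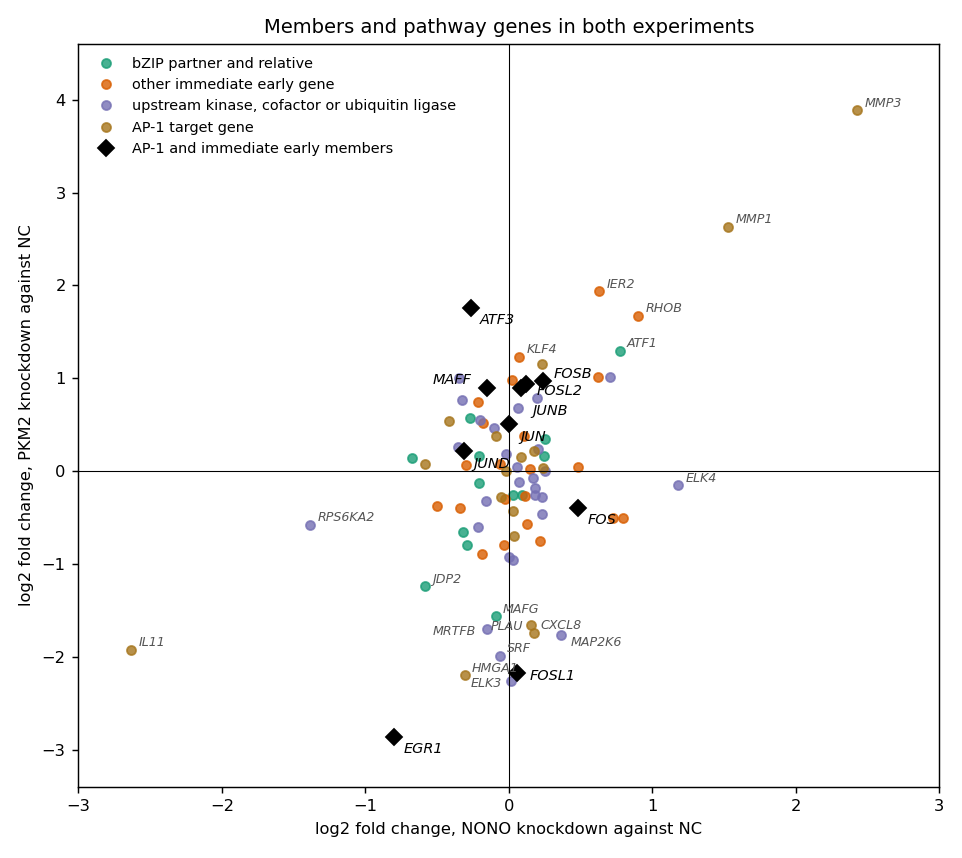
Log2 fold change after NONO knockdown (x axis) against that after PKM2 knockdown (y axis), each against its own NC group, for the 10 members (black diamonds) and the tested genes of 4 lists (coloured points), with the genes farthest from 0 named. FOSL1 lies beside SRF and ELK3 (x near 0, y near -2), and MMP1 and MMP3 lie at the upper right.

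Some genes outside the lists had a pattern close to that of a member. Likeness was the root mean square of the log2 difference over the 12 libraries, each gene centred on its NC means, among 9417 genes with a mean CPM of at least 10. Nearest to FOSL1 was TGM2, which encodes transglutaminase 2, at 0.064, with log2 fold changes of 0.01 after NONO knockdown and -2.22 after PKM2 knockdown. ZNF512B (0.094) and NEO1 (0.097) followed. Nearest to FOSL2 were HELZ2 (0.065), the Notch ligand JAG1 (0.073) and ZC3H12C (0.073). Nearest to JUNB was DUSP5 (0.083), an ERK phosphatase that is itself an early gene, then RAD9A (0.121) and CREBRF (0.125). Nearest to MAFF were SARS1 (0.072), IKZF5 (0.076) and SLC3A2, the heavy chain of amino acid transporters (0.077). SIAH1 was nearest to JUN (0.063), then KIAA0586 (0.071) and ZNF274 (0.074). BASP1 was nearest to JUND (0.088), then IGFBP7 (0.093) and TMEM259 (0.099). These genes were named after their values had been seen, and a small distance here describes the 12 libraries only.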

How the data were processed

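RNA-seq libraries (poly(A)-selected, paired-end) of 3 NC and 3 knockdown samples per experiment were analysed, grouped by the sample labels. The authors deposited estimated counts per gene, which need not be whole, and TPM values in 1 table per experiment. Since column names are identical in the 2 tables, the table gave the experiment, which was checked by the fall of the targeted gene. Per the submitters' processing notes, fastp, HISAT2, StringTie, RSEM, DESeq2, edgeR and limma were used with build hg19, while the role of each tool, the annotation release, the strand setting and the treatment of reads matching several genes are not given in the sources used here. The tables hold 60623 and 60671 genes. The authors' fold changes, P values and group mean TPM were not used. The number of library columns not used was 0.

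Under R 4.3.3, estimated counts were rounded, filtered with filterByExpr, scaled by TMM and tested by the quasi-likelihood test of edgeR 4.0.16, per experiment and, for the difference between knockdowns, in 1 fit over 12 libraries. A gene was called at a Benjamini-Hochberg adjusted P below 0.05, adjusted over every gene in the fit. SE values come from the F statistic. CPM values are TMM-scaled. Scripts were tested on simulated data. Alternatives were the Wald test of DESeq2 1.42.0, RLE size factors in edgeR, all genes with any count, a replicate block, the trend with GC content and length taken out in 20 bins, limma 3.58.1 on log2(TPM + 1) at a minimum mean TPM of 1, on log2(TPM + 0.1) or without that minimum, the cutoffs of the study, and each library left out. Locations come from GENCODE on GRCh38 and served for location only.

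The members and the gene lists were chosen with earlier results of these data known. Besides the 10 members and the targeted genes, the text names per list and experiment the 2 called genes with the largest rise and the 2 with the largest fall.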

Additional observations from a re-analysis of the deposited data

Results flagged for a closer look

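For 8 members the change after PKM2 knockdown differed from the change after NONO knockdown by edgeR's test of the difference itself. The differences in log2 fold change, PKM2 minus NONO, were -0.89 for FOS, -2.24 for FOSL1, 0.80 for FOSL2, 0.49 for JUN, 0.79 for JUNB, 0.51 for JUND, 2.00 for ATF3 and 1.04 for MAFF. The experiments had separate NC groups and tables, so any other difference between the experiments and the difference between the knockdowns cannot be told apart.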

How the results depend on the processing

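The number of members called after NONO knockdown was 1, and it was 2 with DESeq2, 3 without the low-count filter, 0 in all 3 limma settings and 0 by the cutoffs of the study, with 0 to 5 when each library was left out. After PKM2 knockdown it was 3 by the cutoffs of the study, and for the difference 4 by the cutoffs and 4 with limma on log2(TPM + 1) without a filter. FOSB was below the TPM filter in 2 limma settings after PKM2 knockdown and has no value there.

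Over all genes, limma called 2244 genes after NONO knockdown on log2(TPM + 1), 2102 on log2(TPM + 0.1) and 1686 without the filter, and 30.8% of the first were higher against 48.4% with edgeR. The cutoffs of the study, applied here to the fold changes and P values of edgeR, gave 437 genes after NONO knockdown. They gave 3234 after PKM2 knockdown and 2899 for the difference. These are not the gene counts of the study, whose own fold changes and P values were not used. Of the other pathway genes, limma called 19, 18 and 14 after NONO knockdown in the same order, and the cutoffs gave 5, 20 after PKM2 knockdown and 17 for the difference.

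The replicate numbers did not pair the libraries, as deviations of same-numbered libraries correlated between -0.098 and 0.040. With the replicate block 2 members were called after NONO knockdown, also 2 with GC content and length taken out, and over all genes 2080 were higher and 2271 lower. It changed the call of no member but JUND after NONO knockdown (-0.32, adjusted P = 0.0139).

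Levels computed from counts per length in place of deposited TPM gave FOS sums of 795 and 800.0 in NC and NONO knockdown and 832 and 216 in NC and PKM2 knockdown, and JUN sums of 286 and 266 in NC and NONO knockdown and 238 and 308 in NC and PKM2 knockdown. The FOSL1 share was 93.3% in the NC of the NONO experiment, and the ratio of FOS to JUN sums was 2.78 there, 3.53 in the other NC and 0.702 after PKM2 knockdown.

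Signs changed only for values that were not called. With limma after NONO knockdown in the order above, FOSB was -0.0059, -0.0011 and -0.0059, FOSL1 -0.0043 in each, JUN -0.0515, -0.0520 and -0.0515, and ELK3 -0.0455, -0.0460 and -0.0455. With each library left out, JUN ran from -0.0248 to 0.0231, JUNB from -0.0428 to 0.1991, NAB2 from -0.0744 to 0.0035 and ELK3 from -0.0020 to 0.0350 after NONO knockdown, BACH2 from -0.0789 to 0.3559 and GADD45B from -0.0335 to 0.1698 after PKM2 knockdown, and DUSP1 from -0.24 to 0.31 for the difference. Where no cause is shown by the setting itself, the cause was not tested.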

Other observations

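Some members differed in level between the NC groups of the 2 experiments, whose tables were normalized separately and which share no library, so these are values side by side and no comparison. FOS was at 8.49 ± 0.188 TPM in the NC of the NONO experiment and at 1.43 ± 0.115 TPM in the NC of the PKM2 experiment, and FOSB was at 1.45 ± 0.420 and 0.540 ± 0.115 TPM. FOSL1 was at 600 TPM in both. MAFG, a bZIP relative that is not among the members, was at 34.3 ± 1.25 TPM in the NC of the NONO experiment. In the NC of the PKM2 experiment it was at 2.48 ± 2.44 TPM.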
